A study of Mus musculus with 12 samples.

Results

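The loci described here are those of 3 long genes of the mouse genome, Hs3st4, Dgki and Exoc6b, each taken as the gene body with 20 kb on either side. ATAC-seq (assay for transposase-accessible chromatin, in which the transposase Tn5 cuts and tags open DNA) was run on cultured cortical neurons of wild-type C57BL/6 mice taken at embryonic day 18, with 3 libraries in each of 4 groups. All 4 groups were treated for 7 days. The PBS group received vehicle. The PFF group received pre-formed fibrils of alpha-synuclein, which seed its aggregation in neurons. The PFF+MLi-2 group received fibrils and, over the last 5 days, MLi-2, which blocks the kinase LRRK2. The PFF+Rab5 ASO group received fibrils and, over the last 3 days, antisense oligonucleotides against the transcripts of Rab5, the small GTPase of early endosomes. The study's methods give DMSO as the vehicle for MLi-2, and the labels do not say which of these libraries received it. No group here is labelled as treated with a control oligonucleotide, so that a response to Rab5 loss and a response to an oligonucleotide as such cannot be told apart. Merging the peaks of all 12 lists wherever they overlapped by at least 1 bp gave 263785 accessible regions, and 201 of them lay at the 3 loci. Dgki held 98, Hs3st4 52 and Exoc6b 51.

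The members were chosen by their own readout. At each locus a single region, called the leading region below, ranked among the most changed in PFF+Rab5 ASO against PFF or against PBS. Among regions with a peak in all 12 libraries that passed the threshold given below, it had the largest absolute difference. The comparison used was with PFF for Hs3st4 and Dgki and with PBS for Exoc6b. That the other regions of a locus differ less there is therefore largely fixed by the choice. All values of these 3 loci from those comparisons are therefore given as a description and support nothing further. PFF against PBS and the comparisons with PFF+MLi-2 were not used in the choice, but they share the PFF or PBS libraries with it. The leading regions are therefore described there too, and only the other regions were tested. The question at each locus was whether the Rab5 ASO group differed at a single element or along the whole locus.

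Hs3st4 encodes a heparan sulfate sulfotransferase, an enzyme of the Golgi that adds a late sulfate group to heparan sulfate chains and so alters which ligands the chains bind. Dgki encodes diacylglycerol kinase iota, which converts the lipid messenger diacylglycerol into phosphatidic acid and is abundant in brain. Exoc6b encodes a subunit of the exocyst, the complex that tethers secretory and recycling vesicles to the plasma membrane before they fuse. An accessible region inside an intron can be an enhancer, an alternative promoter or another bound element, and its accessibility does not by itself give the level of the transcript.

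All 3 genes are long, and their regions are mostly intronic. In GRCm38, Hs3st4 (ENSMUSG00000078591.1) lies on the plus strand at chr7:123982869-124398989 and spans 416.1 kb. Dgki (ENSMUSG00000038665.15) lies on the minus strand at chr6:36846022-37300184 and spans 454.2 kb. Exoc6b (ENSMUSG00000033769.16) lies on the minus strand at chr6:84618487-85069513 and spans 451.0 kb. By GENCODE vM21, 45 of the 52 Hs3st4 regions, 94 of the 98 Dgki regions and 47 of the 51 Exoc6b regions lay in introns. A peak in all 12 libraries was found in 11 Hs3st4 regions (21.2%), 22 Dgki regions (22.4%) and 6 Exoc6b regions (11.8%), beside 27.5% of all regions. Of the 201 regions, 60 had a peak in 1 library only.

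The leading region of Hs3st4 lies at chr7:124341200-124341496, in an intron towards the 3′ end of the gene, and does not overlap an exon. The leading region of Dgki lies at chr6:36936897-36937114. It is intronic for Dgki, and its summit lies 7 bp before the start of 1700111E14Rik (ENSMUSG00000029837.2), an antisense noncoding gene on the plus strand whose first exon begins at position 36937048 inside the region. The leading region of Exoc6b lies at chr6:84892994-84893400, within the single exon of the retained-intron transcript Exoc6b-208 (84889974 to 84893988) and in an intron of the coding transcripts. The sequences of the Hs3st4 and Exoc6b regions are shown because they are the leading regions of their loci. They are from the GRCm38 reference, plus strand, 5′ to 3′. For Exoc6b the first 300 of 407 bases are given, which include the summit. Capitals mark matches to the motifs that were searched on both strands: CACGTG (the E-box of TFEB and TFE3), TGACTCA or TGAGTCA (AP-1), TGACGTCA (the cyclic AMP response element) and CAGATG (a proneural E-box).
Hs3st4 leading region, chr7:124341200-124341496: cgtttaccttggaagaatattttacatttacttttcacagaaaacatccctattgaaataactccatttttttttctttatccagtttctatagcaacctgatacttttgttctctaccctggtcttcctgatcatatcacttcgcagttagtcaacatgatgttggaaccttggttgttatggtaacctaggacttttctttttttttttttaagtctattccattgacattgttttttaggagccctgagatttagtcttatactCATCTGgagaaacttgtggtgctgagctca
Exoc6b leading region, chr6:84892994-84893293: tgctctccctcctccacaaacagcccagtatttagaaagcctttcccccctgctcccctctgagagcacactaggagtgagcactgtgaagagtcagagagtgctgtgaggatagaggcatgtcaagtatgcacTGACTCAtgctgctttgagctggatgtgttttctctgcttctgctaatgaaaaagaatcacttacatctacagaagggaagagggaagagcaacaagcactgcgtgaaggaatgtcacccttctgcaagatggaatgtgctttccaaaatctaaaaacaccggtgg

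The Hs3st4 sequence held a single match, the proneural E-box (as CATCTG), which was present in 28.4% of all regions in windows of the same length. The Exoc6b sequence held a single AP-1 match, present in 10.95% of all windows of its length. The TFEB E-box was in neither, beside 4.78% and 6.16% of all windows of the Hs3st4 and Exoc6b lengths. The Hs3st4 region was poor in G and C (34.7%), and 3.69% of all windows of its length had a lower share. The share of G and C was 50.4% at Exoc6b.

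At Hs3st4 the leading region was high in the lists of all 3 Rab5 ASO libraries and of middle height in the other 9. The height of a peak was its MACS2 fold enrichment over the local background, read as a percentile of all peaks in the same list. It was 69.2, 71.0 and 67.7 in the PBS libraries, 55.6, 66.8 and 51.5 in the PFF libraries, and 65.1, 55.4 and 71.3 in the PFF+MLi-2 libraries. In the PFF+Rab5 ASO libraries it was 98.5, 97.3 and 98.2. The Rab5 ASO libraries did not overlap with any other group. The fragments piled up at the summit, recovered from the fold and the p-value of the peak, numbered 38, 34 and 35 with the Rab5 ASO and 13 to 18 in the other 9 libraries. The peaks were also wider with the Rab5 ASO, 232 to 263 bp against 103 to 204 bp, while the summits of all 12 libraries lay within 25 bp of the summit of the region.

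At Dgki the same pattern was seen from a lower start. The percentile was 54.8, 7.73 and 49.8 in the PBS libraries, 29.98, 77.4 and 22.6 in the PFF libraries, and 30.2, 48.4 and 31.7 in the PFF+MLi-2 libraries. In the PFF+Rab5 ASO libraries it was 95.6, 96.5 and 95.3. The spread among the other libraries was wide, with PBS replicate 2 near the bottom of its list and PFF replicate 2 well above its group, but none came near the Rab5 ASO libraries. The summit held 32, 32 and 30 fragments with the Rab5 ASO and 9 to 19 elsewhere. With the Rab5 ASO all 3 summits lay within 10 bp of the summit of the region, and in the other 9 libraries they lay from 60 bp before it to 14 bp after it.

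At Exoc6b the leading region moved the other way. The percentile was 93.0, 80.4 and 83.7 in the PBS libraries, 79.7, 62.1 and 75.7 in the PFF libraries, and 83.9, 82.3 and 87.4 in the PFF+MLi-2 libraries. In the PFF+Rab5 ASO libraries it was 60.7, 6.62 and 31.0. All 3 lay below every library of the other groups, but they were far apart among themselves. The summit held 16, 9 and 12 fragments with the Rab5 ASO, 15 to 20 with PFF, and 20 to 28 with PBS or PFF+MLi-2, so that the fragment counts of the Rab5 ASO and PFF groups did overlap. Peak width was 68 to 81 bp with the Rab5 ASO and 120 to 279 bp elsewhere. In PFF+Rab5 ASO replicate 2 the only peak in the region had its summit 101 bp from that of the region, and no peak was listed at the main summit.

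**Figure D1:**
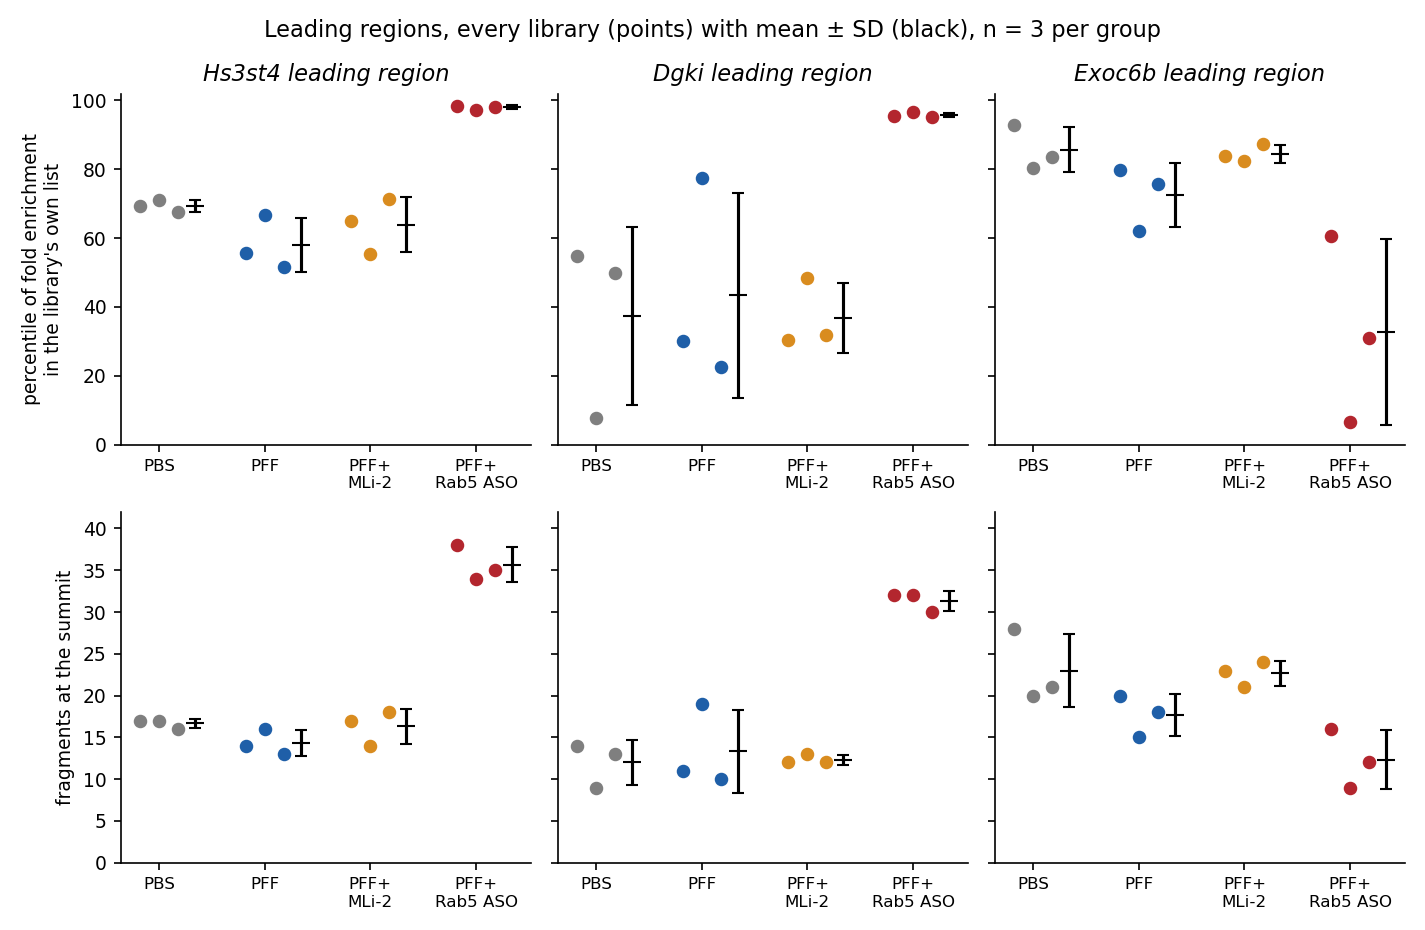
Leading region of each locus in every library. The upper row gives the percentile of its fold enrichment within the library's own list, the lower row the fragments at its summit. Points are libraries, black bars the mean ± SD (n = 3 per group). The Rab5 ASO libraries lie between 95.3 and 98.5 at Hs3st4 and Dgki, above all others, and between 6.62 and 60.7 at Exoc6b, below all others.

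The difference in height was expressed as a difference in the normal score of the rank over the 72465 regions listed in every one of the 12 libraries, in SD of the score. For PFF+Rab5 ASO against PFF it was 2.45 (SE 0.209) at Hs3st4, 2.40 (SE 0.400) at Dgki and −1.29 (SE 0.367) at Exoc6b. Hs3st4 and Dgki had the largest and the next largest positive difference of all regions in this comparison, and the choice of the loci rests on such values. For PFF+Rab5 ASO against PBS it was 1.97 (SE 0.214) at Hs3st4, 2.66 (SE 0.309) at Dgki and −2.04 (SE 0.353) at Exoc6b. In this comparison Dgki was second among the positive and Exoc6b second among the negative differences. Hs3st4 and Dgki passed the threshold of the limma fit (adjusted p under 0.05) in both comparisons, and Exoc6b passed it against PBS only. Leaving out 1 library at a time kept the differences against PFF at 2.36 to 2.59 for Hs3st4 and 2.12 to 2.96 for Dgki, and that of Exoc6b against PBS at −2.40 to −1.64. The calls were less steady, and in a single fit on all 12 libraries Exoc6b passed against PFF as well. Without PFF+Rab5 ASO replicate 1, no region at the loci passed the threshold in either comparison. Against PBS, the same held without PFF+Rab5 ASO replicate 2 or 3 and without PBS replicate 1 or 2. Against PFF, Dgki also fell out without PFF+Rab5 ASO replicate 2 or 3 or without PFF replicate 3, and Exoc6b fell out against PBS without any single one of the 6 libraries.

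The Rab5 ASO libraries differed from the others in ways that touch these heights. Their lists held 162763 to 184717 peaks against 137417 to 180989 in the other 9. Their median peak width was 112 to 124 bp against 127 to 139 bp, their smallest width 53 to 59 bp against 62 to 66 bp, and their most frequent background 1.82 to 2.11 fragments against 1.5 to 1.90. The part of these features in the differences at the 3 loci was not tested. Peaks at the start sites of 9 of 9 neuronal marker genes were present in all 12 libraries, as were those of 4 of 4 astrocyte genes and 3 of 4 genes of the oligodendrocyte lineage. Of 5 microglial genes, none had such a peak in all 12 libraries, and Aif1, Cx3cr1 and Spi1 had none in any. Csf1r had one in 7 libraries and P2ry12 in 3. The mean percentile of Csf1r, with libraries without a peak at 0, was 5.96 with PBS, 41.3 with PFF, 16.6 with PFF+MLi-2 and 8.30 with the Rab5 ASO, and that of P2ry12 was 13.2, 7.53, 3.83 and 0 in the same order. The median percentile over the neuronal genes was 60.5 with PBS, 58.5 with PFF, 56.6 with PFF+MLi-2 and 65.9 with the Rab5 ASO, and over the astrocyte genes 64.2, 52.3, 59.9 and 58.6, and their part in the results was not tested.

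The other regions of the 3 loci were compared in the same way. Of 39 regions that all 12 lists contained, 36 were not leading regions. None of these 36 passed the limma threshold (adjusted p under 0.05) for PFF+Rab5 ASO against PFF, and 10 had an unadjusted p under 0.05, as did 21.1% of all regions. Without overlap between the groups, 4 of the 36 were higher and 5 lower, beside 13.9% and 11.9% of all regions. Of all 72465 regions, 1.97% were called higher and 1.86% lower in that comparison, 2772 in all. This number fell to 0 without PFF+Rab5 ASO replicate 1 and to between 333 and 995 with any other single library left out. The differences of the 36 ran from −1.06 to 1.04 with a median of 0.06, and the median over all regions was 0.01. Against PBS none of the 36 was called and 8 had an unadjusted p under 0.05 (18.7% of all regions), beside 1.00% of all regions called higher and 0.631% called lower, 1184 in all. With any 1 library left out, 0 to 35 of all regions were called. Without overlap, 6 of the 36 were higher and 2 lower than PBS, beside 13.3% and 9.03% of all regions. Their differences ran from −0.78 to 1.02 with a median of 0.08, beside −0.01 over all regions. Since the loci were selected on the same comparisons, nothing is read from these shares. Under other settings 5 regions that were not leading regions were called in at least 1 of these comparisons, and each is named below.

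At Hs3st4 the neighbours of the leading region present in all libraries differed less than it did. Its choice as the largest difference largely fixed this. The region 17.0 kb further into the gene, chr7:124358143-124358385, had a mean percentile of 65.0 with PBS, 73.7 with PFF, 69.6 with PFF+MLi-2 and 70.5 with the Rab5 ASO, and a difference of −0.07 against PFF. The region 21.8 kb before it, chr7:124319453-124319749, stood at 45.2 with PBS, 80.6 with PFF and 68.9 with the Rab5 ASO, a difference of −0.52 against PFF and 0.81 (SE 0.347) against PBS. Against PBS, 7 of the 10 other regions had a positive difference, as the leading region did, and against PFF 5 of 10. At 77.4 kb before it, chr7:124263646-124263994 was lower with the Rab5 ASO, at 65.6, 48.3 and 31.0, than in any PFF library (76.9, 84.8 and 68.2), with a difference of −1.02 (SE 0.268), the largest of the other regions at this locus against PFF. It passed the threshold in a single fit on all 12 libraries. At 77.7 kb after it, beyond the 3′ end of the gene and just inside the 20 kb limit, chr7:124418881-124419118 stood at 93.7 ± 3.77 with the Rab5 ASO and 81.8 ± 7.38 with PFF (SD, n = 3), and the groups overlapped. Against PBS it had the largest difference of the other regions at this locus, 0.95 (SE 0.289), with 94.0, 89.8 and 97.3 in the Rab5 ASO libraries and 72.9, 77.7 and 85.8 in the PBS libraries, which did not overlap. The promoter of Hs3st4 (chr7:123982502-123982959) stood at 73.2, 69.0, 59.5 and 65.1 in PBS, PFF, PFF+MLi-2 and PFF+Rab5 ASO. Beyond the limit, the nearest region was 35816 bp away and had a peak in 3 libraries.

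At Dgki the closest region present in all libraries, chr6:36926454-36926837, lay 10.4 kb from the leading region and stood at 91.0, 92.3, 94.0 and 91.7 in the 4 groups, in the same order, with a difference of −0.04 against PFF. On the other side the closest, chr6:37026442-37027205, lay 89.7 kb away and stood at 69.5 with PFF and 79.8 with the Rab5 ASO, a difference of 0.47. The largest other difference against PFF was 1.04 (SE 0.250) at chr6:37242114-37242698, an intronic region 305 kb upstream of the leading region along the gene. It stood at 86.4, 94.0 and 92.8 with the Rab5 ASO and at 67.7, 72.5 and 77.4 with PFF, and it passed the threshold when log2 fold enrichment was used in place of ranks, or with equal numbers of peaks per list, or with a stricter peak threshold. The largest other difference against PBS was 1.02 (SE 0.279) at chr6:37038545-37038803. This region stood at 89.3, 97.3 and 91.1 with the Rab5 ASO and at 76.0, 66.8 and 81.8 with PBS, and it passed the threshold against PBS in a single fit on all 12 libraries. A region absent from 2 PFF+MLi-2 libraries, chr6:36981761-36981975, lay 44.8 kb upstream of the leading region. It stood at 29.1, 16.2 and 31.0 with the Rab5 ASO and at 61.3, 62.1 and 58.0 with PFF, and it was lower (−1.01, SE 0.203) when all regions with a peak in the 6 libraries compared were fitted, where it passed the threshold. The Dgki promoter (chr6:37299669-37300359) stood at 91.6 with PBS, 90.7 with PFF, 94.8 with PFF+MLi-2 and 95.5 with the Rab5 ASO, a difference of 0.44 against PFF. Just inside the 20 kb limit lay a region 17860 bp upstream with a peak in PBS replicate 1 only. Just outside it, 21926 bp upstream, lay a region present in all libraries, which stood at 92.7 with PFF and 85.4 with the Rab5 ASO.

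At Exoc6b only 5 other regions were present in all libraries. The closest, chr6:84931144-84931339, lay 38.1 kb upstream of the leading region and stood at 29.1, 61.2 and 31.0 with the Rab5 ASO, 70.2, 77.4 and 72.2 with PFF and 60.4, 62.0 and 29.9 with PBS. Its difference was −1.06 (SE 0.275) against PFF, close to that of the leading region, and −0.32 against PBS. It passed the threshold against PFF when PFF+Rab5 ASO replicate 2 was left out. The region chr6:84661027-84661253, 232 kb downstream, stood at 39.4, 39.3 and 41.7 with the Rab5 ASO and at 61.3, 62.1 and 81.5 with PFF, with a difference of −0.91 (SE 0.286). Both were lower in all 3 Rab5 ASO libraries than in any PFF library, as were 11.9% of all regions. The remaining 3 regions, among them the promoter (chr6:85069024-85069829, at 95.2, 96.0, 95.2 and 96.8 in the 4 groups), had differences of −0.04 to 0.08 against PFF. The promoter region reaches past the gene start, and no other region lay in the flanks of this gene. The next one outside the limit was 25501 bp away and had a peak in 1 library.

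**Figure D2:**
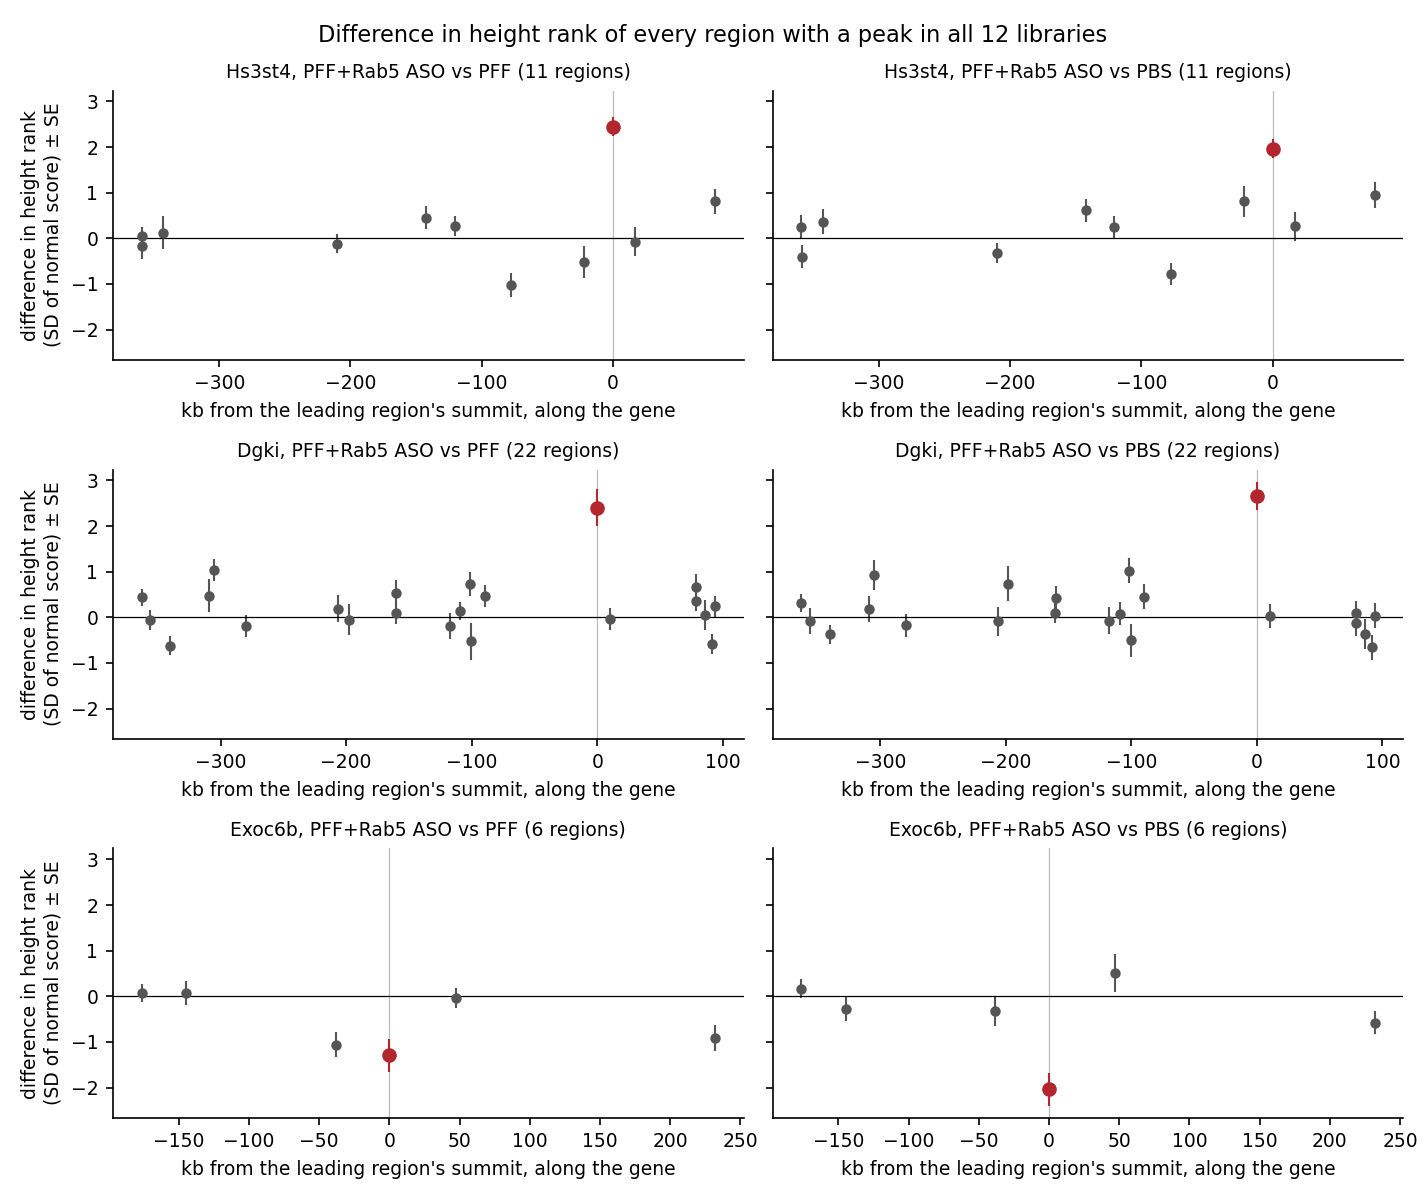
Difference in height rank (SD of the normal score, with its SE) of every region with a peak in all 12 libraries, against its distance in kb from the summit of the leading region along the direction of the gene. The leading regions are in red. All other regions lie between −1.06 and 1.04. Against PFF the leading regions lie at 2.45 (Hs3st4), 2.40 (Dgki) and −1.29 (Exoc6b), the last close to −1.06 at another Exoc6b region. Against PBS they lie at 1.97, 2.66 and −2.04 in the same order.

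The level of each locus without its leading region was taken as the median percentile of its other regions present in all libraries. At Hs3st4 it was 71.1 ± 4.67 with PBS, 77.8 ± 3.51 with PFF, 68.6 ± 2.57 with PFF+MLi-2 and 73.8 ± 9.87 with the Rab5 ASO (SD, n = 3). At Dgki it was 78.2 ± 4.65, 79.4 ± 1.51, 72.2 ± 1.65 and 82.5 ± 2.45 in the same order. At Exoc6b it was 72.9 ± 9.93, 84.6 ± 4.38, 81.8 ± 6.81 and 82.6 ± 3.28. The PFF+MLi-2 libraries lay below every PFF library at Hs3st4 and Dgki, and at Exoc6b the PBS libraries lay below every PFF library. The Rab5 ASO libraries overlapped with the PFF libraries at all 3 loci, and the difference of the means was −4.04 at Hs3st4, 3.06 at Dgki and −1.98 at Exoc6b. Its sign turned at Hs3st4 without PFF+Rab5 ASO replicate 3 (1.49) and at Exoc6b without PFF replicate 1 (0.53). The mean percentile of the leading region went from 58.0 with PFF to single values of 97.3 to 98.5 with the Rab5 ASO at Hs3st4, from 43.3 to 95.8 at Dgki and from 72.5 to 32.8 at Exoc6b. Peaks at each locus were also counted, those of the leading region included. Per 10000 peaks, Dgki held a mean of 3.56 with PBS, 3.06 with PFF, 3.25 with PFF+MLi-2 and 3.80 with the Rab5 ASO, and the PBS and Rab5 ASO libraries overlapped. In the same order Hs3st4 held 1.56, 1.60, 1.41 and 1.81, and Exoc6b 1.58, 1.49, 1.18 and 1.27. The Rab5 ASO and PFF libraries did not overlap at any of the 3 loci in this count, with 3.63 to 4.01 against 2.90 to 3.23 at Dgki, 1.79 to 1.84 against 1.38 to 1.74 at Hs3st4 and 1.03 to 1.43 against 1.45 to 1.51 at Exoc6b. At Hs3st4 the Rab5 ASO libraries lay above all 9 others in this count. A region can hold several peaks, and regions with a peak, not scaled to the list, gave another picture. At Hs3st4 they numbered 26 to 30 with the Rab5 ASO and 20 to 29 with PFF. At Exoc6b they numbered 18 to 23 against 21 to 23, so that the groups overlapped at both loci. At Dgki they numbered 49 to 59 against 41 to 46. The same counts over other genes were not taken. The numbers of peaks at Dgki were 74, 61 and 61 with the Rab5 ASO, 50, 51 and 49 with PFF, 65, 44 and 59 with PBS and 44, 53 and 46 with PFF+MLi-2.

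Regions that appeared or vanished were counted apart, since a region missing from some lists has no rank there. Gained means a peak in each of the 3 libraries of the first-named group and no peak in those of the other, and lost means the opposite. For PFF+Rab5 ASO against PFF, 6 regions were gained and 6 lost among the 174 regions of the loci that at least 1 of the 6 libraries listed, or 3.45% each. Of all regions, 2.64% were gained and 1.94% lost. All 6 gained regions were at Dgki (7.23% of its 83). Of the lost ones, 3 were at Dgki, 2 at Exoc6b (4.55% of its 44) and 1 at Hs3st4. Against PBS, 6 regions were gained, again all at Dgki, and 5 lost, 3 at Exoc6b and 2 at Dgki, beside 2.59% gained and 0.991% lost of all regions. These comparisons served to choose the loci, and the shares are given as a description. The peaks of the gained and lost regions rested on 9 to 21 fragments at the summit, and the lowest count among all 1231 peaks of the loci was 8, with a median of 15.

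Among the Dgki regions gained, 3 had a peak in all 3 Rab5 ASO libraries and in none of the other 9, a pattern found in 1.14% of all regions and 3.06% of the regions at Dgki. The nearest, chr6:36931549-36931657, lay 5.42 kb downstream of the leading region along the gene and held 11, 12 and 15 fragments at its summit in the Rab5 ASO libraries. The second, chr6:36973215-36973333, lay 36.2 kb upstream and held 12, 14 and 14. Its close neighbour chr6:36973382-36973556 held 16, 14 and 16 with the Rab5 ASO and also had a peak in 2 PFF+MLi-2 libraries, with 10 and 11. The third, chr6:37089532-37089673, lay 153 kb upstream and held 21, 13 and 17. These sequences are shown because they are the regions of the loci with a peak in all 3 Rab5 ASO libraries and in no other. They are from the plus strand of GRCm38, and capitals mark motif matches as above.
Dgki region, chr6:36931549-36931657: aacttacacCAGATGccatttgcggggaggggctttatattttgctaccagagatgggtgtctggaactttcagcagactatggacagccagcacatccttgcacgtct
Dgki region, chr6:36973215-36973333: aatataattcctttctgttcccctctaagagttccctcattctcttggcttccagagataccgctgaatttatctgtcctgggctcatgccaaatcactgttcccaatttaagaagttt
Dgki region, chr6:37089532-37089673: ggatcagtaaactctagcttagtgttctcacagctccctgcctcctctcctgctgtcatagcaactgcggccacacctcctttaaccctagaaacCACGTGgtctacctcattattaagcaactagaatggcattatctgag

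The first of them held the proneural E-box, present in 14.3% of all windows of its length, and the third the TFEB E-box CACGTG, present in 2.70% of all windows of its length. The other gained Dgki regions were chr6:36867923-36868113, with 12, 10 and 12 fragments, and chr6:37175633-37175872, with 19, 16 and 12. The former was gained against PFF only and also had a peak in PBS replicate 1, with 10 fragments. The latter also had a peak in PFF+MLi-2 replicate 2, with 12. The gained region chr6:37287631-37287822 was absent from PBS only, as given below. Regions were lost at the same locus as well. At chr6:37150535-37150762 a peak was listed in all PBS and PFF libraries and in 2 of 3 PFF+MLi-2 libraries, with 10 to 16 fragments, and in none with the Rab5 ASO. The others lost were chr6:37119334-37119523 and chr6:37241457-37241635 against PFF and chr6:37007764-37007931 against PBS. At Hs3st4 the lost region was chr7:124199302-124199485, with 11 or 12 fragments in the PFF libraries.

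At Exoc6b other regions were lost. The leading region has a peak in all 12 libraries by the rule that chose it, though not at its main summit in PFF+Rab5 ASO replicate 2. A peak in all 9 other libraries and in none with the Rab5 ASO was found at 2 of its 51 regions (3.92%), a pattern of 0.183% of all regions. The region chr6:84746768-84747085 covers the whole of a 74 bp coding exon, exon 20 of transcript Exoc6b-203 (84746901 to 84746974), and lies 146 kb downstream of the leading region. Its summit held 16, 14 and 10 fragments with PBS, 15, 10 and 11 with PFF, and 16, 13 and 15 with PFF+MLi-2. The region chr6:84806441-84806765 is intronic and held 14, 16 and 12, then 12, 16 and 11, then 15, 17 and 14 in the same groups. Its close neighbour chr6:84806139-84806373 had a peak in all PBS and PFF+MLi-2 libraries and in 2 PFF libraries, with 11 to 19 fragments, and in none with the Rab5 ASO. The sequences of the first pair are shown as the counterpart of the Dgki elements, each by its first 300 bases, which include the summit. No motif searched was found in either.
Exoc6b region over exon 20, chr6:84746768-84747067: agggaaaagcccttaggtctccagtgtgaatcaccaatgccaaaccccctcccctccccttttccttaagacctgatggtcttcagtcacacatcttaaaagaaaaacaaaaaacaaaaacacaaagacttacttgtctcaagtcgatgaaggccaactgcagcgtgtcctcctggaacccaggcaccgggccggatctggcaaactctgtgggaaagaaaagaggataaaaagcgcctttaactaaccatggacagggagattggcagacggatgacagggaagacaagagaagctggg
Exoc6b intronic region, chr6:84806441-84806740: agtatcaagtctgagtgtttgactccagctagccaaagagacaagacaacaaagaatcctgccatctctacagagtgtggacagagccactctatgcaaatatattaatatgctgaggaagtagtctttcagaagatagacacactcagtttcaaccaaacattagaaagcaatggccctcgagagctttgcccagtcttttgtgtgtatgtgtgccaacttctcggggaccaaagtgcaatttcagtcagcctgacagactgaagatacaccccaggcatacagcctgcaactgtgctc

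**Figure D3:**
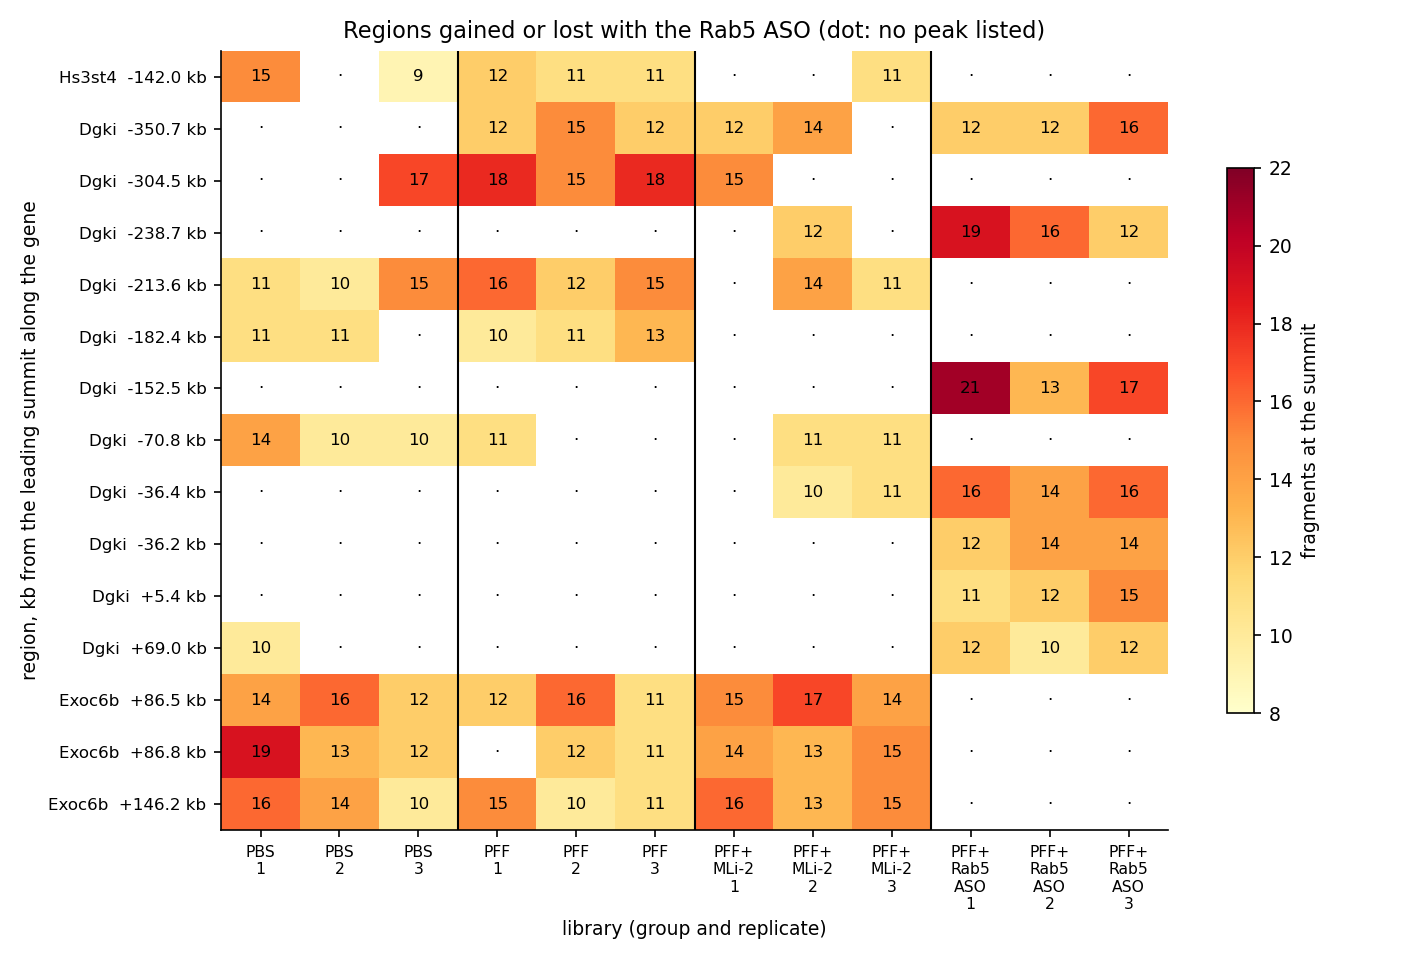
Regions gained or lost with the Rab5 ASO against PFF or PBS, 1 row per region, named by its gene and its distance in kb from the leading summit along the gene. Numbers are the fragments at the summit in each library, and a dot means that no peak was listed. At Dgki 3 rows have values with the Rab5 ASO only, and at Exoc6b 2 rows have values in all 9 other libraries and none with the Rab5 ASO.

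Fibrils alone were tested at the same loci. For PFF against PBS, limma called none of the 36 other regions (adjusted p under 0.05), 3 of them at an unadjusted p under 0.05 (9.72% of all regions), and 0% of all 72465 regions were called. The study compared PFF with PBS by another method, DiffChIPL, and reports regions of increased and of decreased accessibility. The rank test used here covers only regions in all 12 lists. Its 0 calls, here and with MLi-2 below, do not show that an effect was absent. The Exoc6b leading region was lower in all 3 PFF libraries than in any PBS library, 72.5 ± 9.24 against 85.7 ± 6.50 (SD, n = 3), a difference of −0.75 (SE 0.271). The Hs3st4 leading region also did not overlap, at 58.0 ± 7.92 against 69.3 ± 1.66, a difference of −0.48 (SE 0.228). Of all regions, 6.38% were lower in PFF without overlap, and since low PFF values at Hs3st4 and high PBS values at Exoc6b entered the choice, nothing is read from either. At Dgki the difference was 0.26 (SE 0.466), and its sign turned to −0.12 without PBS replicate 2 and to −0.30 without PFF replicate 2. The largest difference of the 39 was at chr7:124319453-124319749 in Hs3st4, which stood at 54.8, 17.9 and 62.8 with PBS and 87.2, 66.8 and 87.9 with PFF (difference 1.34, SE 0.372, limma adjusted p = 0.301). A single region was gained, chr6:37287631-37287822 in Dgki, with 12, 15 and 12 fragments in the PFF libraries, and none was lost, beside 1.10% gained and 0.405% lost of all regions. It also had peaks in 2 PFF+MLi-2 and all 3 Rab5 ASO libraries.

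MLi-2 on top of fibrils gave no call at the loci either. For PFF+MLi-2 against PFF, limma called none of the 36 other regions (adjusted p under 0.05), 3 at an unadjusted p under 0.05 (11.4% of all regions), beside 0% of all regions. The Exoc6b leading region was higher in all 3 PFF+MLi-2 libraries than in any PFF library, 84.5 ± 2.59 against 72.5 ± 9.24 (SD, n = 3), a difference of 0.69 (SE 0.245), beside 5.23% of all regions higher without overlap, and its PFF values entered the choice. The difference was 0.37 (SE 0.236) at Hs3st4 and −0.12 (SE 0.421) at Dgki, where it turned to 0.44 without PFF replicate 2. The Dgki region chr6:37038545-37038803 was the lowest of the 39 against PFF, at 52.0, 61.1 and 54.5 with PFF+MLi-2 and 86.6, 78.3 and 80.4 with PFF (difference −0.94, SE 0.204, limma adjusted p = 0.209). No region was gained and 3 were lost of 146, beside 0.374% gained and 1.64% lost of all regions. They were chr6:37119334-37119523 in Dgki and, in Exoc6b, chr6:84693303-84693519 and chr6:84959372-84959538, the last pair named here after their values were seen.

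PFF+MLi-2 was also set against PBS. Limma called none of the 36 other regions (adjusted p under 0.05), 3 at an unadjusted p under 0.05 (5.77% of all regions), beside 0% of all regions. The differences of the leading regions were −0.11 (SE 0.238) at Hs3st4, 0.14 (SE 0.327) at Dgki and −0.06 (SE 0.233) at Exoc6b, and the sign turned without PFF+MLi-2 replicate 2 at all 3, without PBS replicate 2 at Hs3st4 and Dgki and without PBS replicate 1 at Exoc6b. No region was gained and 1 was lost, chr6:84796118-84796270 in Exoc6b (named after its values were seen), beside 0.225% gained and 0.577% lost of all regions.

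The relatives of the 3 genes were looked at by the same fit, each gene with 20 kb on either side. Heparan sulfate synthesis and editing was represented by 23 other genes with 150 regions present in all libraries. For PFF+Rab5 ASO against PFF, 1 of these was called higher and 4 lower by limma, or 3.33% in all, beside 1.97% higher and 1.86% lower of all regions. The higher one and a lower one were both at Ndst3, which encodes a sulfotransferase that starts the modification of the chains (1.72, SE 0.292, limma adjusted p = 0.0217, and −1.12, SE 0.199, limma adjusted p = 0.0240). The other lower ones were at Ndst1, an enzyme of the same kind (−1.37), Sulf1, which removes sulfate from the chains outside the cell (−1.19), and Extl3, which starts their synthesis (−0.90). Against PBS, none was called higher and 2 lower (1.33%, beside 1.00% higher and 0.631% lower of all regions), at Ext2 (−1.20) and Hs6st3 (−1.28). The other diacylglycerol kinases had 69 such regions at 8 genes. A single one (1.45%) was called against PFF, at Dgkh (1.08, SE 0.231, limma adjusted p = 0.0384), and none against PBS. The other 8 exocyst genes had 49. Against PFF 2 were called higher and 1 lower (6.12% in all), all at Exoc4 (1.13, 0.98 and −1.23). Against PBS 2 were called higher, at Exoc3 (1.14) and Exoc5 (1.20), and 1 lower, at Exoc2 (−1.13), again 6.12% in all. The median difference of the families against PFF was 0.03, 0.07 and −0.0043 for heparan sulfate, diacylglycerol kinase and exocyst genes, beside 0.01 over all regions, and no region of these genes was called in the comparisons without the Rab5 ASO. All calls at these relatives against PFF were lost without PFF+Rab5 ASO replicate 1, and those against PBS without PBS replicate 1 or 2 or PFF+Rab5 ASO replicate 2 or 3, since no region of the whole table then passed.

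The regions whose height rank followed that of a leading region most closely over the 12 libraries lay elsewhere in the genome. For Hs3st4 they were a region at Fgfr2 and Tacc2 on the same chromosome (Pearson r = 0.973 of the normal scores), a region at Gm47663 (0.964) and a region between genes on chromosome 9 (0.956). For Dgki they were at Gm26876 (0.957), Nbas (0.953) and Ankrd35 (0.952). For Exoc6b they were a region between genes on chromosome 7 (0.957), Nme7 (0.953) and Atp8a1 (0.950). Each of these was higher with the Rab5 ASO for Hs3st4 and Dgki and lower for Exoc6b. Choosing them by correlation with a leading region largely fixed this direction. Between the leading regions r was 0.869 for Hs3st4 and Dgki, −0.762 for Hs3st4 and Exoc6b and −0.850 for Dgki and Exoc6b. The points are the same 12 libraries, whose groups differ in peak width and background, and the values are descriptive.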

How the data were processed

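The members and the gene lists were chosen with earlier results of these data known. Per the study's methods and processing notes, the authors trimmed reads with Trim Galore 0.6.7, aligned them with Bowtie2 2.5.1 to GRCm38 and called peaks in each library alone with MACS2 2.2.7.1. MACS2 options, duplicate handling and any Tn5 shift are not given in the sources used here and would change peak width and height. The deposited lists give a fold enrichment (a ratio) over local background, −log10 p, −log10 q and the summit. No read counts were used and total depth is unknown. Fragments at a summit were recovered from fold = (pileup + 1) / (background + 1) and the Poisson p, tested on simulated data. Groups came from titles and treatment labels. For the MLi-2 and Rab5 ASO groups the free-text descriptions mention PBS and not PFF, and the titles were followed. Regions with a peak in all 12 libraries were ranked by fold (highest peak per region and library), turned into normal scores and tested with limma 3.58.1 (R 4.3.3, lmFit and eBayes on 6 libraries, Benjamini-Hochberg over 72465 regions). The study's methods take a pregnancy as the biological replicate, with its cultures spread at random over the groups. The labels give 1 batch and do not say which libraries share a pregnancy. Regions named were the leading regions, own promoters, the nearest neighbours on each side, every region called or gained or lost with the Rab5 ASO, the regions just inside and outside the limit, the 3 most alike regions, the relatives' called regions, and the largest other difference of a comparison (chosen after its value was seen). Sequences were read from the RefSeq GRCm38.p6 FASTA, and that of the Dgki leading region is not reported here.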

Additional observations from a re-analysis of the deposited data

How the results depend on the processing

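Against PFF, 2 regions of the loci were called with the Rab5 ASO. There were 4 in a single fit on all 12 libraries, Exoc6b included, 1 with ranking by −log10 p and 0 to 2 with a library left out. Against PBS, 3 were called. There was 1 with equal numbers of top peaks, 1 with −log10 q of at least 3 and 0 to 2 with a library left out. Same-numbered libraries deviated together only weakly (correlations of 0.0051 to 0.0788), under the 0.1 set for pairing, and the labels do not tie a number to a pregnancy. With the replicate block 3 regions were called against PFF, Exoc6b included, and 0 against PBS, where no region of the whole table passed and the leading regions had a limma adjusted p of 0.0736. The other comparisons gave 0 calls at the loci under every setting run. The Dgki and Exoc6b leading regions could not be fitted under the equal top peaks or the −log10 q setting, since a library then lacks the peak.

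Counting a region as gained or lost on at least 2 of 3 libraries gave 16 gained against PFF, 16 gained against PBS and 9 lost against PBS. Equal top peaks gave 3 lost against PBS. With a library left out, 6 to 10 were gained against PFF, 6 to 10 gained against PBS and 5 to 8 lost against PBS. The median level of the other Exoc6b regions, 9.70 percentile points above PBS with the Rab5 ASO, was 1.25 above with equal top peaks and 4.23 (without PBS replicate 2) to 13.9 (without PBS replicate 1) above with a library left out. Leaving out 1 library turned the sign at the Dgki leading region for PFF against PBS (−0.30 to 0.54), PFF+MLi-2 against PFF (−0.40 to 0.44) and PFF+MLi-2 against PBS (−0.25 to 0.35). For PFF+MLi-2 against PBS it also turned at Hs3st4 (−0.25 to 0.057) and Exoc6b (−0.17 to 0.12). The cause of these changes was not tested. Total depth is unknown, and the gained or lost peaks rest on 9 to 21 fragments.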
